A study of Mus musculus with 30 samples.

Results

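The tibialis anterior of mice aged 24 months (old, n = 3) was compared here with that of mice aged 6 months (young, n = 3), across all genes of the deposited expression table. The members were taken by their labelled age, and they are 6 of the 30 libraries of the series. The other libraries belong to 3 further experiments on the same muscle, with dexamethasone, LLC cancer and an siRNA against Cyr61, each beside its own controls. All libraries came from male C57BL/6J mice, and for the old and young mice the labels give the strain, the tissue and the age, which stands in the place of a treatment, and name no agent or allele. The labels call the libraries biological replicates without saying that each is 1 animal, so the p-values measure the spread between these libraries. The library method is cited from work on muscle lacking UBR4 at these ages, and Ubr4 itself read 16.4, 16.3 and 22.1 TPM at 24 months and 18.7, 16.6 and 11.1 TPM at 6 months.

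The tibialis anterior lifts the foot and in mice is built almost wholly of fast-twitch fibres. Between mature adulthood and old age, skeletal muscle loses mass and force in a process called sarcopenia, in which motor endplates fragment, some fibres lose and regain their nerve, and resident immune cells and connective tissue change. A bulk library mixes the RNA of fibres with that of macrophages, fibroblasts, endothelium, nerve sheath and tendon, so fewer cells of a type and less RNA per cell cannot be told apart in any value given here.

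Expression was measured by poly(A)-selected, strand-marked RNA sequencing and deposited as TPM, reads per gene length scaled to 1000000 per library, so levels can be set side by side between genes. The old libraries held 27.4 to 33.2 M whole reads and the young 29.9 to 34.0 M (M, 1000000), as recovered from the steps of the TPM values, and 3 reads in a gene of 2 kb correspond to 0.0809 to 0.0995 TPM. The labelled tissue was checked against its defining genes. All 12 muscle fibre identity genes, among them Acta1, Ckm and Myh4, were measured at 1 TPM or more, and they summed to 102902 to 120463 TPM at 24 months and 102928 to 115558 TPM at 6 months. Epidermal, salivary and pancreatic acinar genes summed to 1.34 to 1.86 TPM at 24 months and 1.13 to 1.63 TPM at 6 months, with 6 of 12 at 0 in all 6 libraries. That list does not cover fat, tendon or nerve. Tendon genes summed to 106 to 108 TPM at 24 months and 67.9 to 117 TPM at 6 months. Adipocyte genes summed to 1576 to 1935 TPM at 24 months and 1403 to 1676 TPM at 6 months.

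Libraries old 3 and young 3 stood apart from the others of their age. Among the 10511 genes tested, young 3 held the lowest of the 6 values in 61.9% and old 3 the highest in 70.2%, with median deviations from the median of the 6 of -0.19 and 0.22 on the log2 scale. Rows of the mitochondrial genome took 51.4, 50.5 and 43.7% of TPM in the old libraries and 48.0, 51.2 and 52.5% in the young, so old 3 had the lowest share and young 3 the highest. The mean shares, 48.5 ± 4.24% and 50.6 ± 2.35% (SD, n = 3 each), differed by less than their spread (exact permutation test, two-sided, p = 0.6, where 3 against 3 allows no p below 0.1), and without old 3 the difference turned from -2.03 to 0.409 percentage points. The difference of the median gene was 0.14 on the log2 scale as deposited, 0.10 when each library was rescaled without mitochondrial rows, 0.01 under median-of-ratios scaling and -0.01 without old 3 and young 3. Gene group values below are therefore also given relative to the median gene.

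Several RNAs that are kept in the nucleus or are known for retained introns were far lower in young 3 than in the other young libraries. Neat1, the long noncoding scaffold of paraspeckles, read 615, 632 and 672 TPM at 24 months and 361, 277 and 87.4 TPM at 6 months. Malat1, a noncoding RNA of nuclear speckles, read 68.1, 85.9 and 74.97 TPM at 24 months and 45.8, 45.99 and 15.4 TPM at 6 months. Leng8 and Rsrp1, whose products belong with splicing factors, read 18.6, 16.8 and 5.301 and 158, 147 and 57.1 TPM in the young libraries and 24.4, 26.5 and 33.8 and 156, 199 and 228 TPM in the old. In each of the 4, young 3 lay far under the other young libraries. The same held for genes not picked for these traits: Trdn read 179, 228 and 60.5 TPM and Nexn 161, 172 and 71.1 TPM in the young libraries. Old 3 stood out in another set: Rrad, a small GTPase that binds calcium channels, read 2.05, 3.54 and 28.7 TPM at 24 months and 1.08, 2.603 and 1.34 TPM at 6 months, Tubb6, a tubulin of regenerating fibres, read 7.93, 8.101 and 49 TPM at 24 months and 7.06, 9.12 and 5.999 TPM at 6 months, and Dkk3, a secreted protein of the Dickkopf family, read 14, 10.4 and 91.1 TPM at 24 months and 8.21, 4.76 and 3.72 TPM at 6 months. Adipoq, the adipocyte hormone adiponectin, was low in both old 3 and young 3 and read 12.2, 9.13 and 0.913 TPM at 24 months and 2.78, 9.37 and 0.413 TPM at 6 months. Not all genes of the adipocyte list did so: Fabp4, a fatty acid carrier, read 269.95, 267 and 299.7 TPM at 24 months and 235, 255 and 218 TPM at 6 months, highest in old 3. Except for Fabp4, these genes were picked for standing apart, so they are given as values.

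**Figure D1:**
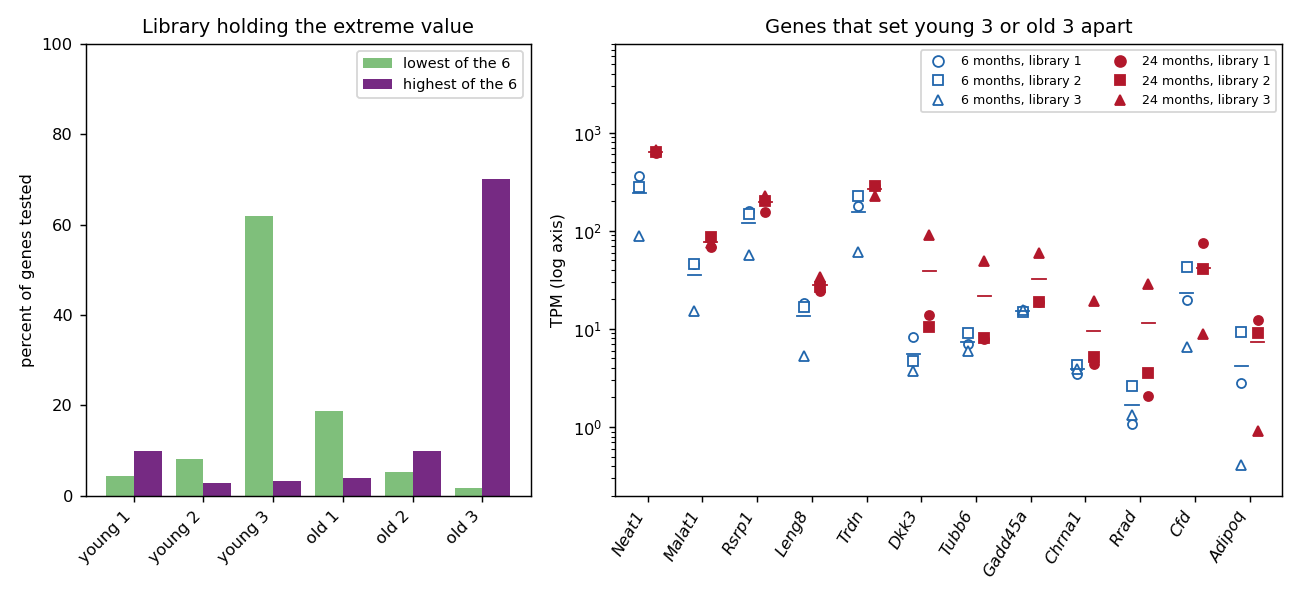
Left, the percent of the 10511 genes tested in which each library held the lowest or the highest of the 6 values. Right, TPM (log axis) of genes that set old 3 or young 3 apart, with filled symbols for 24 months, open symbols for 6 months and a line at each mean. Young 3 held 61.9% of the lowest values and old 3 held 70.2% of the highest.

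Between 24 and 6 months, 18 genes passed the test (limma on log2(TPM + 1), Benjamini-Hochberg adjusted p under 0.05, 10511 genes with at least 1 TPM in at least 3 of the 6 libraries). Of these, 16 were higher at 24 months, which is 0.152% of the genes tested, and 2 were lower, which is 0.019%. The higher genes were Ccl8, Mt2, Tmem132b, H2-Q7, Apod, Ighm, Amy1, Spint2, RP23-455C13.7, Socs3, Penk, Plekhb1, Gpx3, Map7, Kcnab1 and 1 numbered gene model, and H19 was 1 of the 2 lower. After rescaling without mitochondrial rows, 5 of 10498 genes passed, or 0.0476%, all of them higher and all among the 18: Ccl8, Amy1, Mt2, Socs3 and Gpx3. At an unadjusted p under 0.05, 1125 genes were higher (10.7%) and 49 lower (0.466%) as deposited. That split was 1274 to 155 without mitochondrial rows, 837 to 554 under median-of-ratios scaling and 636 to 637 under quantile normalization. In 1626 genes (15.5%) every old value lay above every young value, and in 80 (0.761%) below. The latter split was 1219 to 965 under median-of-ratios scaling. Counts of the lists below are to be read beside the shares of all genes tested as deposited.

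All 18 called genes were free of overlap between the ages. Their sign was therefore bound to hold in each of the 6 fits that leave out 1 library, which adds no further support. The calls themselves depended on old 3 and young 3: 7 of the 18 were called without old 3 and 2, Amy1 and Ccl8, without young 3, while all 18 were called without any 1 of the other libraries. None was called under median-of-ratios scaling, where their adjusted p ran from 0.0594 to 0.231, and 2 (Amy1 and Kcnab1) were called by limma voom on the recovered reads. The sign of all 18 was kept under both. The lowest adjusted p over the fits that leave out 1 library, given for genes below, is not a measure of strength. It reached 4.36e-31 (limma) for Dkk3, where old 3 stood far above the other libraries, and 3.64e-25 for Csrp3, where the ages overlapped. Neither gene was called with all 6 libraries.

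**Figure D2:**
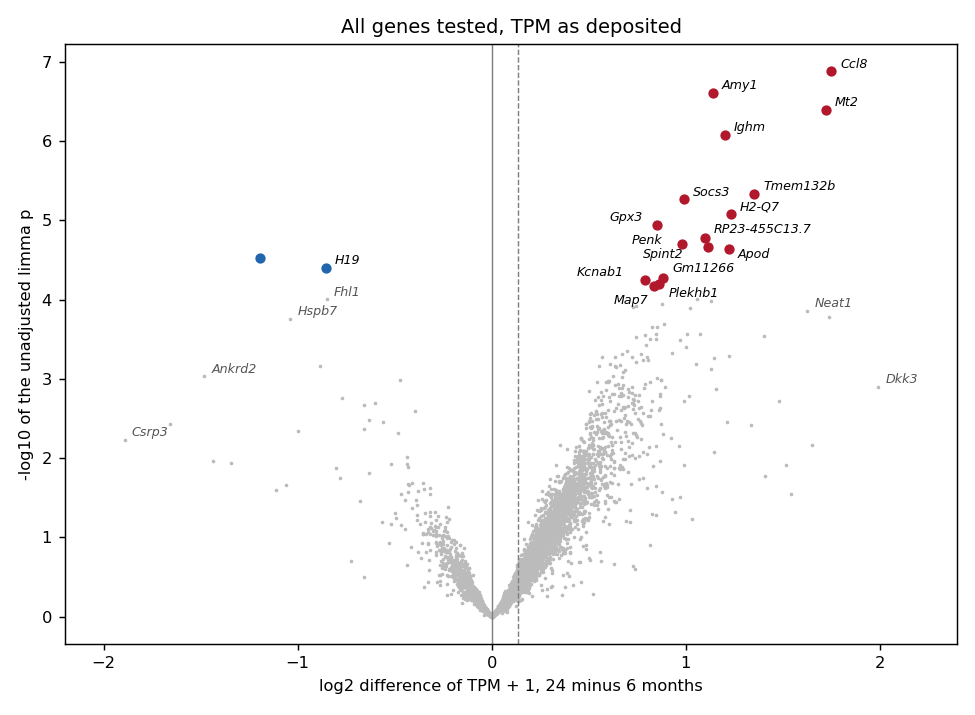
Each point is 1 of the 10511 genes tested, by its log2 difference (24 minus 6 months) and its unadjusted limma p on a -log10 scale, with called genes in red (16 higher) and blue (2 lower). The dashed line marks the median gene at 0.14, and grey labels name genes with large differences that did not pass the test.

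**Figure D3:**
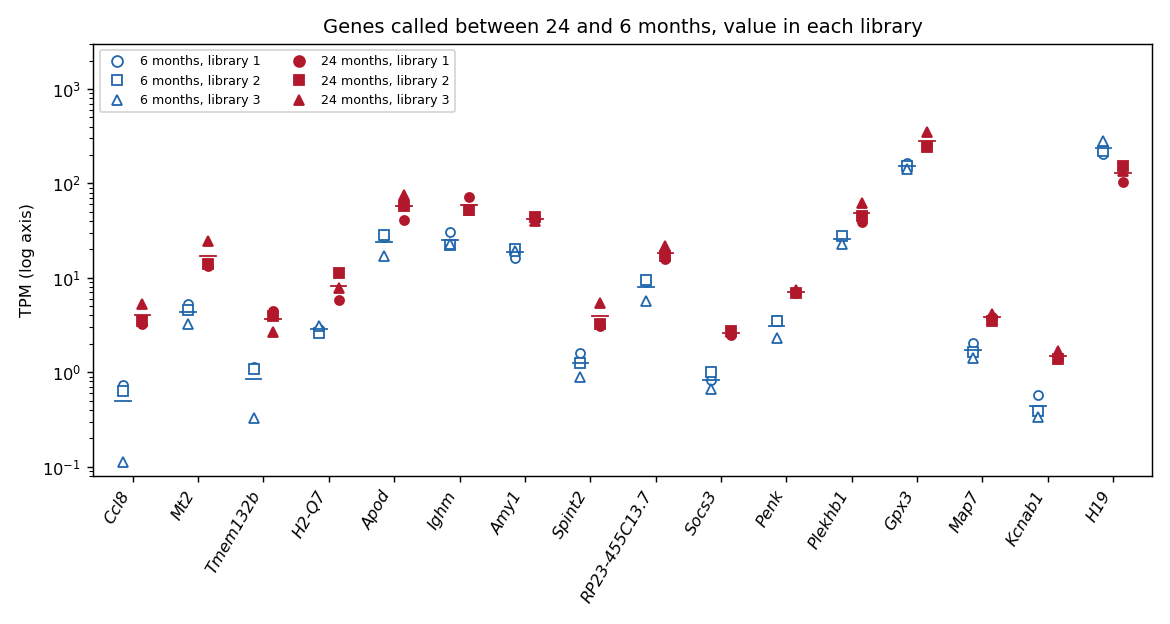
TPM of 16 of the called genes in each of the 6 libraries (log axis), filled for 24 months and open for 6 months, with a line at each mean. No old value overlaps a young value, and the young 3 triangle is the lowest in 12 of the 15 higher genes.

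Metallothioneins are small cysteine-rich proteins that bind zinc and copper. Their genes lie side by side on chromosome 8, and Mt1 and Mt2 answer to metals and to glucocorticoids. Mt2 read 13.2, 13.95 and 24.5 TPM at 24 months and 5.32, 4.56 and 3.28 TPM at 6 months, which stand for 111, 139 and 205 reads at 24 months against 47, 47 and 32 at 6 months. It rose with age (log2 difference 1.72 ± 0.21, adjusted p = 0.00141, limma), and the mean at 24 months was 3.92 times that at 6 months. Old 3 was the highest and young 3 the lowest, yet the other libraries kept a gap of more than 2-fold between the ages. Its adjusted p ran from 2.66e-14 to 0.112 over the fits that leave out 1 library, the highest without young 3. Mt3, best known from brain, read 1.84, 4.25 and 4.81 TPM at 24 months and 0.936, 1.303 and 0.847 TPM at 6 months (log2 difference 1.13 ± 0.22, adjusted p = 0.0514) and Mt1 read 20.9, 20.6 and 24.9 TPM at 24 months and 12.7, 14.6 and 17.7 TPM at 6 months (log2 difference 0.54 ± 0.15, adjusted p = 0.188). Both were free of overlap without passing the test. Of the young libraries only young 2 reached 1 TPM in Mt3, so Mt3 met the filter only through the old group. Of the 8 tested genes of the metallothionein and zinc list 4 were higher at an unadjusted p under 0.05 and 0 lower, beside 10.7% and 0.466% of all genes tested. The fourth was the zinc importer Slc39a10, while the transcription factor Mtf1 that drives metallothioneins and the exporter Slc30a1 were not among the 4.

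The sequence before each start site is shown for Mt2, Mt1 and Mt3, which are neighbours of 1 family. Each window holds the 250 bases before the RefSeq start on the plus strand (GRCm38.p6), at chr8:94172368-94172617 for Mt2, chr8:94178839-94179088 for Mt1 and chr8:94152357-94152606 for Mt3. Capitals mark matches on either strand of TGCNCNC, the core of the metal response element.
Mt2: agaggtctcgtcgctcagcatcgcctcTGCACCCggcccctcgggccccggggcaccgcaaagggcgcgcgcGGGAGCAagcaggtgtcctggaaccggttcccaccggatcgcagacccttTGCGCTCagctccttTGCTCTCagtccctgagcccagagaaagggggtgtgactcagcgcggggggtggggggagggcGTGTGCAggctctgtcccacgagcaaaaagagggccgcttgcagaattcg
Mt1: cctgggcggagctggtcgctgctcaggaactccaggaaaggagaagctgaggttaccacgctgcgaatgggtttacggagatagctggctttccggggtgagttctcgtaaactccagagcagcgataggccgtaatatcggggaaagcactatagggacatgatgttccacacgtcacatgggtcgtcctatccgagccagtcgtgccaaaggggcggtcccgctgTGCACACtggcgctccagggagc
Mt3: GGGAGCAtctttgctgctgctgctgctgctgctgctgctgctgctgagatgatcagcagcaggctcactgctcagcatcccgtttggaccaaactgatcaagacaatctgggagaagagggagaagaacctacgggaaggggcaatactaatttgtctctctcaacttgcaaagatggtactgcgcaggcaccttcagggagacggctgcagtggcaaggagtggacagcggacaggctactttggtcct
The Mt2 window held 5 matches, the Mt1 window 1 and the Mt3 window 1. The core is short: 44.4% of the 32851 windows of this length in the RefSeq table held at least 1 match, 15.2% held 2 or more and 1.28% held 4 or more. A match is a stretch of letters and was not tested as a binding site. The Mt2 window ended at 94172617, short of the GENCODE start at 94172664. Sites outside these windows were not counted, so the numbers do not describe a whole promoter. Their relation to the differences with age was not tested.

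Ccl8 encodes MCP-2, a chemokine made largely by tissue macrophages that draws monocytes and T cells. It read 3.23, 3.495 and 5.32 TPM at 24 months and 0.739, 0.633 and 0.111 TPM at 6 months, from 25, 32 and 41 reads at 24 months against 6, 6 and 1 at 6 months. The 3 young libraries were all under 1 TPM and the 3 old all above 3 TPM, and Ccl8 rose with age (log2 difference 1.75 ± 0.20, adjusted p = 0.00128, limma). Ccl8 therefore met the filter of 1 TPM in 3 libraries only through the old group, a selection that its p-value does not account for. It remained called without any 1 library, with adjusted p from 2.16e-14 to 0.0419. With so few reads in the young libraries, the size of the difference on the log2(TPM + 1) scale understates the ratio of means of 8.12.

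Genes of MHC class I, the cell-surface complex that shows peptides from inside the cell to CD8 T cells, were the immune list with the most members free of overlap between the ages. Of 20 tested genes of class I and the immunoproteasome, 1 was called (H2-Q7), 12 were higher and 0 lower at an unadjusted p under 0.05, and 11 had every old value above every young one. Over all genes tested, 10.7% were higher and 0.466% lower at that p, and 15.5% lay above without overlap. The list's median was 0.39 on the log2 scale, 0.25 above the median gene, and 0.36 above it without old 3 and young 3. H2-Q7, a class Ib heavy chain, read 5.76, 11.1 and 7.87 TPM at 24 months and 2.83, 2.59 and 3.09 TPM at 6 months and rose (log2 difference 1.23 ± 0.19, adjusted p = 0.0123, limma). Its neighbour H2-Q6 read 10.5, 18.1 and 14.2 TPM at 24 months and 4.59, 6.78 and 9.15 TPM at 6 months (log2 difference 0.97 ± 0.21, adjusted p = 0.0845). The classical heavy chains H2-K1 and H2-D1 read 48.4, 72.4 and 66.5 TPM at 24 months and 41.3, 38.7 and 37.99 TPM at 6 months, and 56.6, 73.1 and 73.6 TPM at 24 months and 46.3, 44.02 and 44.8 TPM at 6 months, with adjusted p of 0.110 and 0.110. In these 4 genes old 2 or old 3 was the highest and the groups did not overlap. The heavy chains are near copies of each other, so how the authors' counting split reads among them is uncertain. The adjusted p of H2-Q7 ran from 7.82e-05 to 0.160 over the fits that leave out 1 library, with 0.160 without young 3 and 0.111 without old 3.

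The windows before the start sites of these 4 heavy chains are shown because they belong to the list with the most members free of overlap among the immune lists. They hold 250 bases each from RefSeq (GRCm38.p6) at chr17:34000348-34000597 (minus strand, the first of 2 windows listed), chr17:35262844-35263093, chr17:35424600-35424849 and chr17:35438905-35439154 (plus strand). Capitals mark, on either strand, GGGATTCCC, a site of the kind NF-kappa B binds, and TTTCACTTC, a part of the interferon-stimulated response element. The matches share no base.
H2-K1: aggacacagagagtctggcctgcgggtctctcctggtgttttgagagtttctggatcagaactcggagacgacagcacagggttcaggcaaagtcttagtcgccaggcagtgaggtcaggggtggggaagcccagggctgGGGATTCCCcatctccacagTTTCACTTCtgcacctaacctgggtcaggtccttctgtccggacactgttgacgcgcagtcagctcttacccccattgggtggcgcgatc
H2-D1: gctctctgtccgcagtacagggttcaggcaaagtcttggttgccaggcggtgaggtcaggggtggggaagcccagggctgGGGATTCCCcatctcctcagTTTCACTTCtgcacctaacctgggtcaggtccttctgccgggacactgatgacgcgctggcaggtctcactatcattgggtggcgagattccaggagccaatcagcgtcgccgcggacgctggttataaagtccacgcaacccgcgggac
H2-Q6: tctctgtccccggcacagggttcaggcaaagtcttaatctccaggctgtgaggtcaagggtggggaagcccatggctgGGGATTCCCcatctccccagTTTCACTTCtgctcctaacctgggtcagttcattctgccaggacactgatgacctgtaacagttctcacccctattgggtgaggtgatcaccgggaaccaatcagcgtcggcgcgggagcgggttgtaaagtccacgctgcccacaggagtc
H2-Q7: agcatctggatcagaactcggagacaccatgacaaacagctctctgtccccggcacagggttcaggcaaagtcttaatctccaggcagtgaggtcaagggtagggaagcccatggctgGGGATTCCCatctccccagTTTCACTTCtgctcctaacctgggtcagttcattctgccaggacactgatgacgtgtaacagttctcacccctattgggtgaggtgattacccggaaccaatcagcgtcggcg
Each motif occurred 1 time in each of the 4 windows. Among all 32851 windows, 0.402% held TTTCACTTC and 0.301% held GGGATTCCC. The 4 windows are closely alike in sequence, so their matches are not separate occurrences to be set against these shares. The matches were not tested as binding sites, and their relation to the differences with age was not tested.

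Interferon-stimulated genes stood beside them. Of 26 tested, 0 were called, 12 were higher and 0 lower at an unadjusted p under 0.05, and 9 were free of overlap, with a median 0.21 above the median gene (0.30 without old 3 and young 3). The shares over all genes tested were 10.7% higher, 0.466% lower and 15.5% above without overlap. Irf1, a transcription factor that interferon gamma induces, read 4.52, 5.45 and 4.75 TPM at 24 months and 3.42, 3.201 and 3.37 TPM at 6 months. Rsad2, the antiviral enzyme viperin, read 2.11, 3.86 and 2.41 TPM at 24 months and 1.22, 1.495 and 1.72 TPM at 6 months. Igtp, an interferon-inducible GTPase, read 9.27, 26.97 and 11.8 TPM at 24 months and 7.69, 7.68 and 8.68 TPM at 6 months, with old 2 far above the others. None of the 3 passed the test (adjusted p 0.299, 0.232 and 0.297).

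Complement, a cascade of plasma and tissue proteases that tags cells for clearance, had the highest median, as deposited, of the lists with more than 10 tested genes. Of 16 genes 0 were called, 9 were higher and 0 lower at an unadjusted p under 0.05, beside 10.7% and 0.466% of all genes tested. The median lay 0.42 above the median gene, 0.33 without old 3 and young 3. C1s1, a protease of the first complex, read 18.8, 17.9 and 22.6 TPM at 24 months and 14.2, 12.5 and 10.3 TPM at 6 months. Cfb, the protease of the alternative pathway, read 4.02, 3.18 and 2.89 TPM at 24 months and 2.54, 1.203 and 0.706 TPM at 6 months, and Cd55, a membrane inhibitor, read 22.8, 26.4 and 29.4 TPM at 24 months and 18.7, 19.9 and 14.8 TPM at 6 months. So these 2 activators and the inhibitor stood higher at 24 months without overlap, none past the test (adjusted p 0.121, 0.148 and 0.188).

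Markers of immune cells moved with these groups, and their part in them was not tested. Macrophage genes summed to 78.2 to 131 TPM at 24 months and 45.6 to 79.3 TPM at 6 months. Of 15 tested, 5 were higher at an unadjusted p under 0.05, beside 10.7% of all genes tested (median 0.23 above the median gene). Lyz2, a lysozyme of macrophages and neutrophils, read 58.1, 38.6 and 36.6 TPM at 24 months and 30.9, 25.2 and 19.7 TPM at 6 months (adjusted p 0.113). MHC class II, made by antigen-presenting cells, had 7 tested genes, 3 higher and 0 lower at an unadjusted p under 0.05, with summed levels of 67.7 to 102 TPM at 24 months and 65.3 to 67.9 TPM at 6 months that overlapped. Markers of T and NK cells were near the limit of detection, with 16 of 17 under 1 TPM in all 6 libraries and none tested, and they summed to 1.76 to 4.91 TPM at 24 months and 0.652 to 0.975 TPM at 6 months. Neutrophil markers had 1 tested gene of 12, S100a9, at 3.16, 6.42 and 1.65 TPM at 24 months and 0.724, 1.34 and 0.873 TPM at 6 months (adjusted p 0.110). Of the young libraries only young 2 reached 1 TPM in it, so S100a9 met the filter only through the old group.

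Ighm, the constant region of IgM heavy chains and a marker of B cells, read 71.5, 52.9 and 52.9 TPM at 24 months and 30.2, 22.2 and 22.9 TPM at 6 months and rose with age (log2 difference 1.20 ± 0.16, adjusted p = 0.00217, limma). The 6 values fell into separate ranges, with old 1 the highest. Its adjusted p ran from 2.80e-09 to 0.122 over the fits that leave out 1 library, the highest without young 3. The other immunoglobulin genes were sparse. Igkc, the kappa light chain, read 25.2, 3.88 and 1.99 TPM at 24 months and 0.355, 1.82 and 2.25 TPM at 6 months, with 1 high library, and 15 of the 19 immunoglobulin and B cell genes stayed under 1 TPM in all 6 libraries. The list summed to 58.9 to 107 TPM at 24 months and 26.5 to 34.8 TPM at 6 months, most of which is Ighm. Reads of immunoglobulin genes can be split among near-identical copies, so these levels are uncertain.

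Socs3, which shuts off signalling of IL-6 family cytokines through Jak and Stat3, read 2.49, 2.72 and 2.68 TPM at 24 months and 0.828, 1.01 and 0.670 TPM at 6 months. Each old value was more than 2 times each young value, and Socs3 rose (log2 difference 0.99 ± 0.15, adjusted p = 0.00949, limma). It read 109, 141 and 117 reads at 24 months against 38, 54 and 34 at 6 months. Of the young libraries only young 2 reached 1 TPM. Socs3 therefore met the filter only through the old group, a selection that its p-value does not account for. Over the fits that leave out 1 library its adjusted p ran from 3.40e-04 to 0.112, the highest without young 3. Of 15 tested genes of the IL-6, Stat3 and Socs list, 5 were higher and 0 lower at an unadjusted p under 0.05, beside 10.7% and 0.466% of all genes tested. Socs2, an inhibitor of growth hormone signalling, read 3.82, 6.62 and 2.55 TPM at 24 months and 2.801, 1.62 and 1.996 TPM at 6 months (adjusted p 0.279), and Stat3 itself was not among them. The median of the list was 0.22 above the median gene and 0.11 without old 3 and young 3.

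Gpx3, a secreted selenium-containing glutathione peroxidase, was the most abundant of the genes that rose. It read 250.3, 246 and 349 TPM at 24 months and 165, 153 and 144 TPM at 6 months (log2 difference 0.85 ± 0.14, adjusted p = 0.0150, limma), with old 3 apart above the other old libraries and a clear gap to the young. Its adjusted p ran from 9.23e-07 to 0.274 over the fits that leave out 1 library, the highest without young 3. The rest of the glutathione and antioxidant list did not share this: of 26 tested genes 3 were higher and 0 lower at an unadjusted p under 0.05, beside 10.7% and 0.466% of all genes tested. The median was -0.01 relative to the median gene.

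Genes of nerve, endplate and secreted peptides gave 2 calls. Penk encodes proenkephalin, the precursor of opioid peptides. It read 6.87, 6.93 and 7.35 TPM at 24 months and 3.58, 3.47 and 2.301 TPM at 6 months and rose (log2 difference 0.98 ± 0.17, adjusted p = 0.0202, limma), and the 3 old libraries lay close together. Plekhb1, a membrane-binding protein expressed in myelinating cells, read 39.2, 45.04 and 62.2 TPM at 24 months and 27.7, 27.6 and 22.7 TPM at 6 months and rose (log2 difference 0.86 ± 0.16, adjusted p = 0.0393, limma). Over the fits that leave out 1 library the adjusted p of Penk ran from 4.09e-04 to 0.125, the highest without old 3 (0.122 without young 3), and that of Plekhb1 from 1.94e-04 to 0.470, the highest without young 3 (0.139 without old 3). Of 11 tested Schwann cell and myelin genes 7 were higher and 0 lower at an unadjusted p under 0.05, beside 10.7% and 0.466% of all genes tested. The median was 0.36 above the median gene. Without old 3 and young 3 that median was 0.10. Mbp, a protein of compact myelin, read 3.22, 4.16 and 9.101 TPM at 24 months and 2.55, 3.43 and 2.000 TPM at 6 months (log2 difference 0.74 ± 0.25, adjusted p = 0.310). Old 3 alone was high in it.

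The denervation and endplate genes had the same shape. Of 17 tested, 0 were called and 5 were higher at an unadjusted p under 0.05, beside 10.7% of all genes tested. The median of 0.18 above the median gene became -0.03 without old 3 and young 3. Chrna1, the acetylcholine receptor subunit that spreads over denervated fibres, read 4.38, 5.23 and 19.1 TPM at 24 months and 3.47, 4.29 and 3.897 TPM at 6 months (adjusted p 0.386). Gadd45a, a stress gene that denervation induces, read 18.8, 18.9 and 59.6 TPM at 24 months and 15.4, 14.8 and 15.4 TPM at 6 months (adjusted p 0.336). Cdkn1a, the p53 target p21, read 10.8, 9.47 and 36.7 TPM at 24 months and 10.1, 8.05 and 4.895 TPM at 6 months (adjusted p 0.332). In these 3 genes old 3 was 3 to 4 times the next old library, and the other 2 old libraries lay near the young.

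Amy1, the salivary and liver amylase gene (chr3:113555710-113606699 in mm10), was among the called genes that depended least on 1 library. It read 41.9, 44.3 and 39.6 TPM at 24 months and 16.2, 20.1 and 19.4 TPM at 6 months, from 2186, 2737 and 2055 reads at 24 months against 887, 1285 and 1171 at 6 months. The groups were 2.26-fold apart in means and neither old 3 nor young 3 stood out, and Amy1 rose (log2 difference 1.14 ± 0.13, adjusted p = 0.00128, limma). It was called in all 6 fits that leave out 1 library, with adjusted p from 1.81e-06 to 0.0419, and by voom on recovered reads. The epidermal and acinar markers named above did not move with it. Amylase genes are near copies of each other, so reads may be shared among them.

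Tmem132b, a single-pass membrane protein, read 4.41, 3.93 and 2.64 TPM at 24 months and 1.12, 1.07 and 0.325 TPM at 6 months and rose (log2 difference 1.35 ± 0.20, adjusted p = 0.00949, limma). Kcnab1, a beta subunit of voltage-gated potassium channels, read 1.38, 1.38 and 1.67 TPM at 24 months and 0.579, 0.389 and 0.332 TPM at 6 months and rose (log2 difference 0.79 ± 0.15, adjusted p = 0.0366). Map7, which binds microtubules and activates kinesin, read 3.81, 3.45 and 4.16 TPM at 24 months and 2.05, 1.62 and 1.43 TPM at 6 months and rose (log2 difference 0.84 ± 0.16, adjusted p = 0.0393). Spint2, an inhibitor of serine proteases, read 3.09, 3.25 and 5.35 TPM at 24 months and 1.58, 1.24 and 0.888 TPM at 6 months and rose (log2 difference 1.11 ± 0.19, adjusted p = 0.0202). These 4 genes were of low level, and in each the young libraries were all below the lowest old one. Kcnab1 met the filter only through the old libraries, a selection that its p-value does not account for. Tmem132b and Spint2 were under 1 TPM in young 3, so they too needed old libraries to meet the filter. Apod, a lipid carrier made by fibroblasts, read 40.6, 57.9 and 75.9 TPM at 24 months and 26.9, 28.4 and 17.1 TPM at 6 months (log2 difference 1.22 ± 0.21, adjusted p = 0.0202), and the clone RP23-455C13.7, which the annotation used here did not match, read 15.9, 16.9 and 21.6 TPM at 24 months and 8.95, 9.498 and 5.66 TPM at 6 months (log2 difference 1.10 ± 0.18, adjusted p = 0.0195). In both, old 3 was the highest and young 3 the lowest. Without young 3 none of the 6 was called (adjusted p 0.122, 0.238, 0.250, 0.294, 0.410 and 0.178 in this order), and without old 3 only Tmem132b was (0.0261, the others 0.151, 0.151, 0.128, 0.175 and 0.151). The lowest values over the fits that leave out 1 library were 5.12e-07, 0.00267, 0.00234, 1.05e-05, 4.40e-08 and 1.13e-05.

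H19, an imprinted long noncoding RNA that is abundant in fetal muscle (chr7:142575529-142578143, mm10), read 103, 151 and 135 TPM at 24 months and 203, 218 and 283 TPM at 6 months and fell (log2 difference -0.85 ± 0.15, adjusted p = 0.0295, limma). Each old value lay under each young one, with young 3 the highest. Without young 3 the adjusted p was 0.462, without old 3 it was 0.148, and the lowest over the fits that leave out 1 library was 3.91e-07. Of the other 12 tested imprinted genes none was called.

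Other genes with clearly lower values at 24 months did not pass the test. Fhl1, a LIM protein of the sarcomere, read 463, 389.8 and 392 TPM at 24 months and 569, 1038 and 704 TPM at 6 months (log2 difference -0.85 ± 0.17, adjusted p = 0.0514, limma). Hspb7, a small heat shock protein of muscle, read 195, 209 and 185 TPM at 24 months and 285, 670.1 and 344 TPM at 6 months (log2 difference -1.04 ± 0.21, adjusted p = 0.0653). Young 2 was the highest in both. The same library was high in Ankrd2, a stretch-responsive ankyrin repeat protein, at 37.2, 70.8 and 48.5 TPM at 24 months and 66.1, 316 and 138 TPM at 6 months (adjusted p 0.146), and in Csrp3, the muscle LIM protein, at 4.697, 14.96 and 13.2 TPM at 24 months and 10.1, 144 and 40.3 TPM at 6 months (adjusted p 0.254), where the ages overlapped. Of 24 heat shock genes 0 were called, 0 were higher and 3 lower at an unadjusted p under 0.05, beside 10.7% and 0.466% of all genes tested. The 3 were all small heat shock proteins: Hspb7, Hspb6 and Hspb1.

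The chains of collagens I and III, the main fibres of connective tissue, had lower means at 24 months. Of 22 tested genes of the collagen and matrix list 0 were called, 1 was higher (the cross-linking enzyme Lox) and 3 lower at an unadjusted p under 0.05. Over all genes tested the shares were 10.7% and 0.466%. The 3 lower genes were the chains of collagens I and III. Col3a1 read 10.3, 6.23 and 10.04 TPM at 24 months and 18.3, 14.4 and 10.9 TPM at 6 months, Col1a1 read 6.57, 4.58 and 9.04 TPM at 24 months and 15.8, 9.94 and 7.57 TPM at 6 months and Col1a2 read 6.88, 5.07 and 9.06 TPM at 24 months and 15.3, 9.85 and 6.68 TPM at 6 months, with adjusted p of 0.224, 0.358 and 0.446. Only Col3a1 was free of overlap. The list's median was -0.21 relative to the median gene and -0.32 without old 3 and young 3, and its sign was negative under each scaling tried. Tendon genes went the other way, with 6 of 8 higher and 0 lower at an unadjusted p under 0.05, beside the same shares of all genes. Their median was 0.35 above the median gene (0.50 without old 3 and young 3). Chad, chondroadherin, read 3.54, 3.29 and 3.91 TPM at 24 months and 2.25, 1.67 and 1.02 TPM at 6 months (log2 difference 0.82 ± 0.18, adjusted p = 0.0845), and Comp, a cartilage and tendon matrix protein, read 8.01, 4.07 and 4.24 TPM at 24 months and 3.32, 2.69 and 0.916 TPM at 6 months (log2 difference 0.99 ± 0.27, adjusted p = 0.169). The summed tendon list, 106 to 108 TPM at 24 months and 67.9 to 117 TPM at 6 months, overlapped.

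No contractile gene passed the test. Myh4, the myosin of the fastest fibres, read 10778, 10379 and 11570 TPM at 24 months and 11088, 11421 and 6179 TPM at 6 months, with young 3 alone low (log2 difference 0.24 ± 0.17, adjusted p = 0.592, limma). Myh1, the myosin of 2X fibres, read 2344, 2256 and 1729 TPM at 24 months and 2887, 2732 and 3106 TPM at 6 months without overlap (log2 difference -0.47 ± 0.12, adjusted p = 0.148). Myh2, of 2A fibres, read 63.4, 181 and 219 TPM at 24 months and 60.8, 131 and 174 TPM at 6 months (log2 difference 0.29 ± 0.37, adjusted p = 0.754), and its spread within each age exceeded the difference between them. Myh7, of slow fibres, stayed under the filter at 0.584, 0.761 and 0.896 TPM at 24 months and 0.418, 0.817 and 1.96 TPM at 6 months. The fast-fibre list had 0 calls in 15 genes and the slow-fibre list 0 in 12, with medians of -0.05 and -0.05 relative to the median gene, and neither sign held throughout: the first turned under quantile normalization (0.10) and the second without old 3 and young 3 (0.11) and without young 3 alone (0.19).

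The genes most used as signs of muscle wasting did not pass the test. Fbxo32, the ubiquitin ligase atrogin-1, read 99.9, 79.2 and 120.3 TPM at 24 months and 109, 73.6 and 52.9 TPM at 6 months (log2 difference 0.38 ± 0.21, adjusted p = 0.491, limma), and Trim63, the ligase MuRF1, read 115, 106 and 152 TPM at 24 months and 125, 129 and 95.98 TPM at 6 months (log2 difference 0.09 ± 0.15, adjusted p = 0.805). Of 19 atrophy ligases and FoxO targets 0 were called and 1, Sesn1, was higher at an unadjusted p under 0.05, beside 10.7% of all genes tested. Mstn, which encodes myostatin and limits muscle growth, read 18.2, 21.2 and 21.7 TPM at 24 months and 19.7, 21.2 and 14.4 TPM at 6 months (log2 difference 0.15 ± 0.16, adjusted p = 0.697). Eda2r, a receptor linked to muscle wasting in cancer, read 9.27, 9.399 and 11.6 TPM at 24 months and 9.54, 8.102 and 4.93 TPM at 6 months (log2 difference 0.41 ± 0.19, adjusted p = 0.446). Cdkn2a, which encodes the senescence marker p16, was under the filter at 0.169, 0.381 and 0.170 TPM at 24 months and 0.161, 0.0460 and 0.0972 TPM at 6 months. In Fbxo32, Trim63, Mstn and Eda2r the ages overlapped. Leaving out old 3 and young 3 brought Fbxo32 to -0.01, Trim63 to -0.20 and Mstn to -0.05 on the log2 scale.

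Cyr61, the matrix protein that the study goes on to knock down, read 18.3, 23.9 and 19.6 TPM at 24 months and 14.8, 13.4 and 13.4 TPM at 6 months. Each old value lay above each young one. The log2 means were 4.42 ± 0.19 and 3.89 ± 0.08 (SD, n = 3 each), a difference of 0.53 with an exact permutation p of 0.1 (two-sided), the smallest that 3 against 3 can give, and limma gave an adjusted p of 0.169. The difference was 0.49 without mitochondrial rows and 0.39 under median-of-ratios scaling. Of the 17 tested CCN and YAP/TAZ target genes 4 were higher and 1, Ankrd2, was lower at an unadjusted p under 0.05, beside 10.7% and 0.466% of all genes tested. Csrp2, a LIM protein among the higher, read 4.14, 4.07 and 3.95 TPM at 24 months and 2.52, 2.61 and 2.58 TPM at 6 months (adjusted p 0.207).

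Genes of oxidative phosphorylation, the respiratory chain and ATP synthase in mitochondria, sat just below most others. Of 59 nuclear-encoded genes none was called and none reached an unadjusted p of 0.05, but 58 lay below the median gene. Every old value lay below every young one in 6 of the 59, beside 0.761% of all genes tested. The median of the list was -0.06 on the log2 scale, or -0.20 relative to the median gene, and -0.02 relative to it without old 3 and young 3. The 13 mitochondrially encoded mRNAs had a median of -0.07, or -0.20 relative to the median gene, and 0.08 without old 3 and young 3. The summed nuclear list, 27143 to 29566 TPM at 24 months and 28378 to 31484 TPM at 6 months, overlapped.

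**Figure D4:**
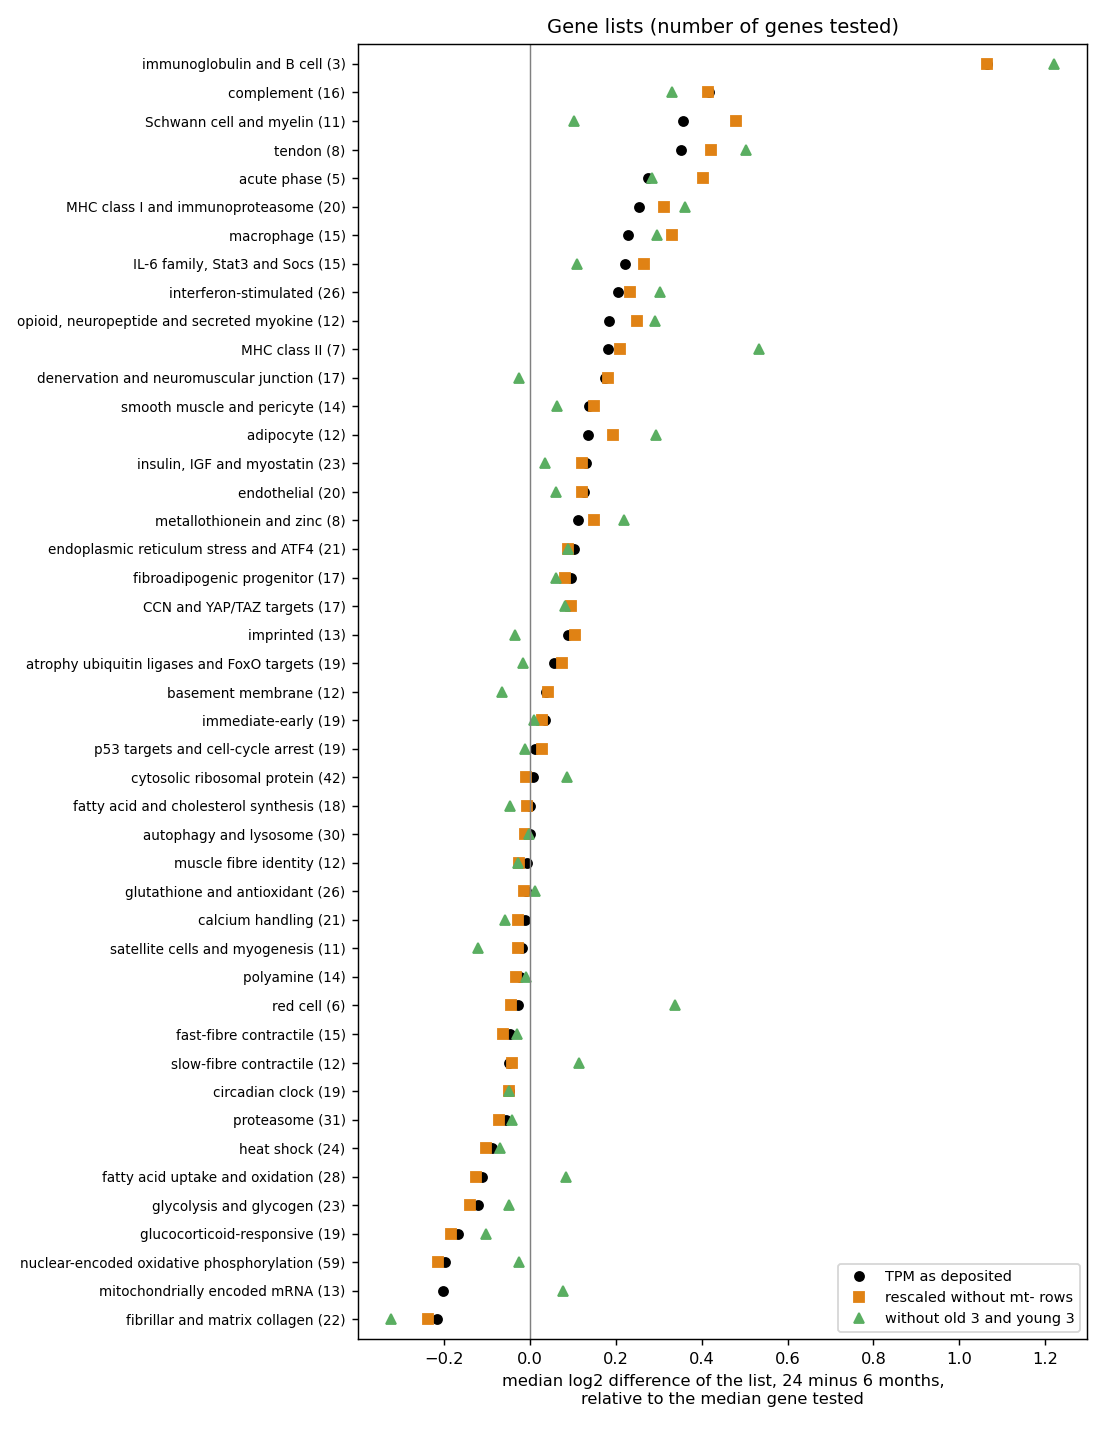
Each line is a gene list with at least 3 tested genes (number in brackets), and the points give the median log2 difference between 24 and 6 months relative to the median gene tested, for TPM as deposited (black), rescaled without mitochondrial rows (orange) and without old 3 and young 3 (green). MHC, interferon, complement, macrophage and tendon lists lie right of 0 in all 3, the collagen list lies left in all 3, and the denervation list crosses 0 without them (-0.03).

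With old 3 and young 3 both left out, an analysis added after the data were seen, 16 genes passed in the remaining 4 libraries, 12 higher and 4 lower, and 8 of them were among the 18 of the full comparison: Tmem132b, Mt2, Ccl8, Amy1, Penk, RP23-455C13.7, Gpx3 and Socs3. Neat1 passed there (log2 difference 0.98, adjusted p = 0.0378, limma) and missed the threshold with all 6 (0.0558). The 4 lower genes were Slc25a25, an ATP-magnesium carrier of mitochondria, Arrdc2, an arrestin-like protein, Tob2, an antiproliferative factor, and Per1, a clock gene. Slc25a25 read 2.57, 2.78 and 18.1 TPM at 24 months and 28.4, 11.3 and 10.6 TPM at 6 months, and Per1 read 7.18, 9.17 and 21.4 TPM at 24 months and 16.9, 18.1 and 8.46 TPM at 6 months. In Slc25a25, old 1 and old 2 lay under every young value and old 3 among the young. In Per1, old 3 lay above old 1 and old 2, and young 3 below young 1 and young 2.

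The difference with age was also set against those of the other wasting models, each within its own experiment and controls, which share no libraries with the ages. The test was the difference between the 2 differences over 14 libraries (limma). Against dexamethasone, a synthetic glucocorticoid that wastes muscle, 257 of 12274 genes differed, or 2.09%, 87 higher with age and 170 lower, and the split was 139 to 71 without mitochondrial rows. Of the genes called with age and named here, Ccl8 showed the largest gap. It was at 31.02 to 91.7 TPM in the dexamethasone controls and 5.08 to 12.7 TPM under the drug (log2 difference -2.47 ± 0.34), so that the age difference exceeded the drug difference by 4.22 ± 0.47 (adjusted p = 1.79e-04, limma; 2.45e-04 to 0.00125 over 9 alternatives). Igkc, which was not called with age and had 1 high old library, had a gap of 4.45 ± 0.85 (adjusted p = 0.0115, limma; 0.00504 to 0.0426 over 9 alternatives). The antigen presentation genes H2-Q7, H2-Q6, H2-Eb1 and Cd74 also had higher differences with age than with the drug. The drug difference of H2-Q7 was -1.86 ± 0.23, a gap of 3.09 ± 0.34 (adjusted p = 1.79e-04), and that of H2-Q6 was -2.08 ± 0.25, a gap of 3.06 ± 0.38 (adjusted p = 4.26e-04). H2-Eb1 and Cd74, of MHC class II, had gaps of 2.61 ± 0.29 and 2.24 ± 0.26 (adjusted p = 1.79e-04 and 2.36e-04), though neither passed the test with age itself. Spint2 had a gap of 1.89 ± 0.24 (adjusted p = 4.49e-04). These 7 genes kept their call in all 9 alternatives, with an adjusted p of at most 0.00257 in the 6 other than Igkc. H2-K1 and H2-D1 had smaller gaps, of 1.25 ± 0.19 and 0.88 ± 0.18 (adjusted p = 0.00238 and 0.0187, limma). H2-K1 kept its call in all 9 alternatives and H2-D1 in 7, with an adjusted p of up to 0.0750.

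Of the metal-binding genes, Mt2 was higher at 24 months and higher still with dexamethasone, at 21.5 to 47.1 TPM in controls and 131 to 399 TPM under the drug, and the gap of -1.19 ± 0.45 did not pass the test (adjusted p = 0.215). Mt1, at 40.8 to 48.3 TPM in controls and 136 to 405 TPM under the drug, did differ, with a gap of -1.82 ± 0.35 (adjusted p = 0.0115, limma; 0.0173 to 0.0550 over 9 alternatives, the call lost under median-of-ratios scaling). All 6 old and young libraries held less Mt2 than the dexamethasone controls, except that old 3, at 24.5 TPM, lay within their range. H19 had a gap of -1.74 ± 0.30 (adjusted p = 0.00627, limma), with a range of 0.00808 to 0.0520 over 9 alternatives, and its call was lost under median-of-ratios scaling (0.0520). Experiment and cohort cannot be told apart in such levels, and the ages of the mice in the other experiments were not given in the sources used here.

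Against LLC, an abbreviation commonly used for the Lewis lung carcinoma tumour line, 11 of 11229 genes differed, or 0.098%. Ighm stood at 41.1 to 63.4 TPM in controls and 13.4 to 23.9 TPM with the tumour (log2 difference -1.50 ± 0.18), a gap to the age difference of 2.70 ± 0.27 (adjusted p = 3.20e-04, limma; 3.51e-04 to 0.00470 over 9 alternatives). Tmem132b, at 0.271 to 0.539 TPM in the LLC controls and 0.210 to 0.307 TPM with the tumour, had a gap of 1.51 ± 0.23 (adjusted p = 0.0167), with 0.00708 to 0.0634 over 9 alternatives, the highest at a pseudocount of 0.1. The LLC libraries differ from the rest in mt-Nd6, the mitochondrial mRNA on the opposite strand to the other 12: it read 9292 to 11615 TPM in the 8 LLC and control libraries and 213 to 494 TPM in the 6 old and young, while its overlapping neighbour mt-Nd5 read 9198 to 12959 and 10235 to 12868 TPM. The strand setting of the counting, not given in the sources used here, and its part in the LLC comparison were not tested.

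**Figure D5:**
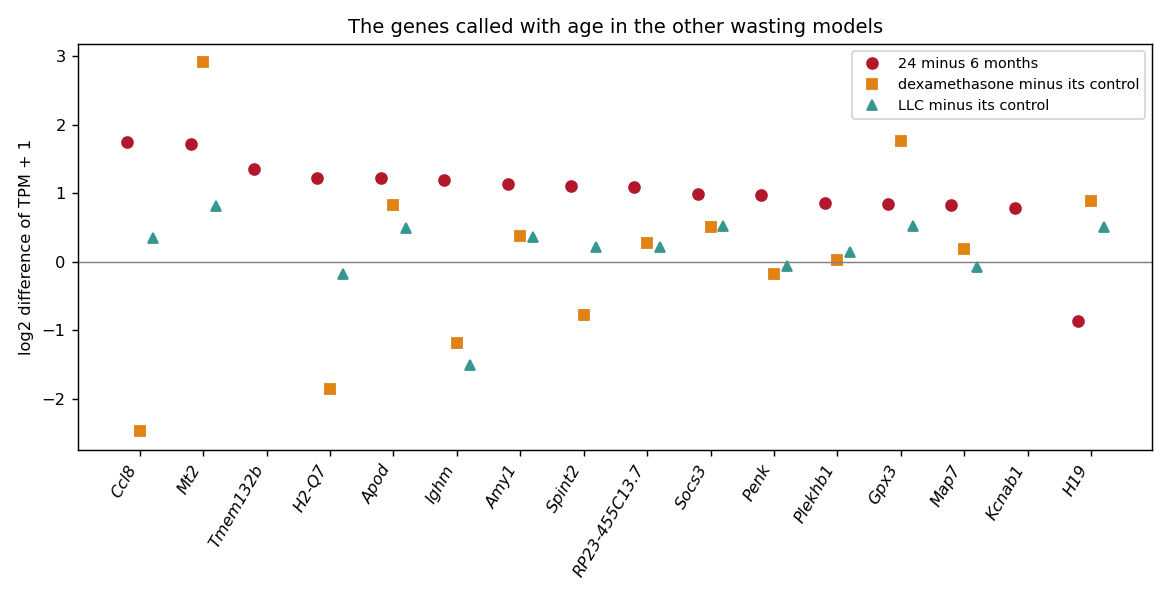
Log2 difference of TPM + 1 for 16 of the called genes between 24 and 6 months (circles), dexamethasone and its control (squares) and LLC and its control (triangles), where a missing symbol marks a gene under the filter in that experiment. Ccl8, H2-Q7, Ighm and Spint2 lie above 0 with age and below 0 with dexamethasone, and Mt2 and Gpx3 lie above 0 in all 3.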

How the data were processed

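RNA of the tibialis anterior was sequenced from TruSeq stranded mRNA libraries on a NovaSeq, per the labels' protocols. The authors deposited 1 table of TPM (transcript reads per length, scaled per library) for 47643 gene symbols, each column summing to 1000000. The build was mm10, per the submitters' processing notes, with aligner, counter, strand setting and annotation not given in the sources used here. Without the strand setting, reads of overlapping antisense genes may be mixed. No column was left unused (0).

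Whole reads were recovered from the TPM steps with a tolerance of 0.05 read: of 23193 genes above 0, 15820 gave whole reads at the exon length of GENCODE M21 (mm10) and 7372 at another length, whose reads may be low by a whole factor. Without molecular identifiers, read numbers cover counting error only. Coordinates came from GENCODE M21, which matched 45084 symbols, and promoter windows from RefSeq (GRCm38.p6).

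Genes with at least 1 TPM in at least 3 of the 6 libraries were tested on log2(TPM + 1), a pseudocount of 1, with limma 3.58.1 in R 4.3.3 (variance trend, two-sided, Benjamini-Hochberg over all genes tested, adjusted p under 0.05). Fold changes on this scale understate those of low genes. The same fit was made after rescaling without mitochondrial rows, and the 2 interactions were fitted over 14 libraries each. The fits were tested on simulated data that held no shift of whole libraries like that of old 3 and young 3. That test therefore does not bear on how far the calls depend on old 3 and young 3. The members, the 48 gene lists and the tests were chosen with earlier results of these data known, so lists are described by counts and medians, with no test over a list. Named were called genes, the 15 largest differences in each direction without overlap and with a mean of at least 5 TPM, up to 4 genes per list at an unadjusted p under 0.05, a short list of wasting genes, and up to 6 genes per interaction, 148 in all, of which the text gives those its groups turn on. Of the genes this rule names, 2 are not reported here. Genes chosen for standing apart in 1 library or called without old 3 and young 3 were named after their values were seen. Alternatives were a pseudocount of 0.1, no filter, a filter of 5 TPM, a replicate block, robust variances, all 8 groups in 1 fit, median-of-ratios scaling, quantile normalization, other thresholds and leaving out each library. Leaving out old 3 and young 3 and limma voom on recovered reads were added after the data were seen. Tables were made with Python 3.11.15, numpy 2.4.6, pandas 2.3.3 and scipy 1.17.1, and figures with matplotlib 3.10.9.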

Additional observations from a re-analysis of the deposited data

How the results depend on the processing

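The number of genes called between the ages was 18 as reported and 0 without the filter on low values (limma, 1826 at an unadjusted p under 0.05) or under median-of-ratios scaling (1391), 1 under quantile normalization, 2 by voom on recovered reads, 5 with all 8 groups in 1 fit, 86 with robust variances, 41 at an adjusted p under 0.1 and 6 under 0.01. Leaving out 1 library gave 2 (without young 3) to 278 (without young 1). Rescaled without mitochondrial rows, the 5 calls became 0 at a pseudocount of 0.1 (1402 at an unadjusted p under 0.05), 0 without a filter (2257), 0 with a filter of 5 TPM (740), 0 at an adjusted p under 0.01, 10 with robust variances, 40 with all 8 groups in 1 fit, 13 at an adjusted p under 0.1, 3 without old 3 and young 3 and 0 to 5 without 1 library. The cause of these shifts was not tested. The 257 differences from dexamethasone were 166 at a pseudocount of 0.1 and 113 to 503 without 1 library, and the 11 from LLC were 18 without mitochondrial rows, 17 under median-of-ratios scaling and 5 to 23 without 1 library. Genes free of overlap numbered 1706, and 3730 without old 3 and young 3, where fewer values have to separate.

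Libraries of the same number correlated in their deviations at 0.044 (1), 0.135 (2) and 0.085 (3). With 3 libraries per age these values cannot show whether the numbers pair the samples. With the replicate block, 152 genes were called as deposited and 0 without mitochondrial rows (1240 at an unadjusted p under 0.05).

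Of the gene values under all alternatives, 2065 kept their side of the threshold, 128 lost and 227 gained a call, and 13 changed sign, all in genes that were not called. Without old 3 and young 3, Peg3 became -0.0403, Fbxo32 -0.0116, Trim63 -0.196, Mstn -0.0542, Myh4 -0.0894 and Ubr4 -0.0999, and Trim63 became -0.0663 under median-of-ratios scaling. Without 1 library, Trim63 ran from -0.063 to 0.194, Mstn from -0.0077 to 0.256, Myh2 from -0.147 to 0.831 and Myh4 from -0.0463 to 0.397. The difference in the share of TPM in mitochondrial rows, -2.03 percentage points, ran from -3.47 to 0.409, the latter without old 3. Differences between 3 and 3 libraries with reads as few as those of Ccl8 at 6 months are limited by counting as well as by the spread between libraries.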
